A study of Mus musculus with 12 samples.

Results

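The antioxidant enzyme genes described here are 10 rows of an RNA-seq table of mouse triceps brachii, a muscle of the upper forelimb, picked by symbol out of 10187 genes. They are Sod1, Sod2, Cat, Gpx1, Gpx3, Gpx4, Prdx3, Prdx5, Prdx6 and Txn2, and the question put to them is how the enzymes of mitochondria compared with those of the cytosol in all 12 mice. By textbook location, 4 were grouped as mitochondrial (Sod2, Prdx3, Prdx5 and Txn2), 3 as cytosolic (Sod1, Gpx1 and Prdx6) and 3 as neither (Gpx4, Cat and Gpx3). Some of these proteins have a second location, such as Prdx5 in peroxisomes and the cytosol, and the location of the proteins was not measured. All 10 passed the filter for testing, a mean of at least 10 normalized reads over the 12 mice, as did 7247 genes in all. The 12 libraries held an estimated 9023648 to 12184244 counted reads each, and at least 333 reads lay behind each member in each mouse.

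The study crossed voluntary exercise with loss of myostatin, a secreted protein that limits muscle growth, in 4 groups of 3 male C57/BL6 mice. Mice without a wheel were of the wild-type (IW) or the myostatin-reduced genotype (IM), and the same 2 genotypes with a wheel are AW (wild-type) and AM (myostatin-reduced). Every mouse, wild-type mice included, ate chow with 0.025% tamoxifen for 6 weeks in all between 4 and 6 months of age, which acted through a Cre recombinase only on floxed Mstn genes. The promoter that drives Cre, and whether wild-type mice carried Cre, are not given in the sources used here. At 6 months the active mice moved to individual cages with running wheels for 12 weeks, so that running and the change of cage cannot be told apart. The mice sampled from the 2 genotypes had been selected to run alike, and which mice were matched is not given in the sources used here. The targeted gene followed the labels: Mstn read 79.7, 138 and 131 in IW and 110.3, 90.1 and 80.8 in AW, against 18.3, 17.2 and 21.6 in IM and 16.1, 8.70 and 13.5 in AM, with no overlap between genotypes.

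The antioxidant enzymes act in series. Superoxide dismutases turn superoxide, which leaks from the respiratory chain and from oxidases, into hydrogen peroxide, and hydrogen peroxide is then removed by catalase, by glutathione peroxidases that use glutathione, or by peroxiredoxins that use thioredoxin or, for Prdx6, glutathione. In muscle, contraction raises the production of these oxidants, and enzymes of the same chemistry are kept apart in mitochondria, cytosol, peroxisomes and the extracellular fluid.

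The 3 glutathione peroxidases are selenoproteins: a TGA codon in the open reading frame, elsewhere a stop, is read as selenocysteine, the residue that reacts with peroxide. The stretch around that codon is shown because it marks these 3 genes within the set and because 2 of them, Gpx3 and Gpx4, were the members called between genotypes. The call of Gpx4 depended on single mice. Each line gives 51 bases of coding sequence of the longest protein-coding transcript, from the NCBIM37 (mm9) genome, plus strand, with the TGA codon in capitals.
Gpx1: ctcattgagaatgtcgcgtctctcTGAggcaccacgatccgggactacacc
Gpx3: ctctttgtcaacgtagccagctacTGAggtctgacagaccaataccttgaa
Gpx4: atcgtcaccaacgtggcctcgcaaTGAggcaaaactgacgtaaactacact

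The codon lies in exon 1 of Gpx1 (chr9:108241782-108241784), in exon 2 of Gpx3 (chr11:54720758-54720760) and in exon 3 of Gpx4 (chr10:79517482-79517484). It is codon 47 of 202, codon 73 of 227 and codon 129 of 254. Over the 51 bases, Gpx1 and Gpx4 had the same base at 29 positions, Gpx3 and Gpx4 at 26, and Gpx1 and Gpx3 at 24.

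Per kilobase of the longest protein-coding transcript, the secreted plasma peroxidase Gpx3 had the highest level of the 10 genes, a mean of 321 normalized reads per kilobase over the 12 mice, with a range of 227 to 460.3. Prdx3, the main peroxiredoxin of mitochondria, at 161, and Sod1, the copper-zinc dismutase of the cytosol, at 159, came next and were not distinct, since each was the higher in 6 of 12 mice. The other mitochondrial members lay together below them: the manganese dismutase Sod2 at 84.8, the peroxiredoxin Prdx5 at 77.8 and Txn2, the thioredoxin that supplies electrons to mitochondrial peroxiredoxins, at 77.2, with overlapping ranges. Gpx4 (49.7), Gpx1 (47.1), Prdx6 (41.6) and catalase, Cat (38.3), were lowest in this count, again with overlapping ranges between neighbours. The steps from Gpx3 to Prdx3, from Sod1 to Sod2 and from Txn2 to Gpx4 had no overlap in range, and the higher gene was above the lower in 12 of 12 mice. This order depends on how reads that match several places in the genome were counted, which is not given in the sources used here. Of the 65-base windows of the transcripts, 57.9% of those of Gpx4, 21.7% of Sod2 and 15.3% of Sod1 occur elsewhere too, and none of the other 7 genes. If no read from such windows was counted, the level per kilobase of the remaining length, an alternative chosen after seeing the data, would be 118 for Gpx4, 108 for Sod2 and 187 for Sod1. Gpx4 would then be above Txn2 in 12 of 12 mice and rank 4, and Sod1 above Prdx3 in 12 of 12, so that the places of these genes are not settled, while Gpx3 would keep rank 1.

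With wheel running, all 4 mitochondrial members rose, and so did the cytosolic Prdx6, while Sod1, Gpx1, Gpx4, Cat and Gpx3 did not pass the test. The test was limma on log2(value + 1) with 4 group means over the 12 mice, and a gene was called at a Benjamini-Hochberg adjusted p under 0.05 over all 7247 genes. Of those genes, 14.5% were called for activity in either direction and 7.99% were called higher, against 5 of 10 members, all higher. The median log2 change was 0.13 over the 10 members and -0.02 over all genes tested. In a whole muscle, more RNA of a gene per cell and more cells that express it cannot be told apart, and what is reported below is the level in the muscle.

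Prdx5, a peroxiredoxin that reduces hydrogen peroxide, alkyl hydroperoxides and peroxynitrite (chr19:6981187-6984596, minus strand), had the largest activity change of the members. It read 85.9, 79.2 and 84.3 in IW and 102, 121 and 125 in AW, and 81.2, 75.4 and 74.6 in IM and 117, 122 and 109.5 in AM. All 6 active mice were above all 6 inactive mice. The change of 0.53 on the log2(value + 1) scale (SE 0.057, 95% interval 0.41 to 0.66, adjusted p = 0.000845) is an increase of 44.5%. Of the 1262 exonic bases of Prdx5, 409 (32.4%) lie across from exons of Trmt112 on the other strand, and the use of strand in the counting is not given in the sources used here. Trmt112 itself read 16.4 to 23.4 over the 12 mice, with an activity change of 0.05 (adjusted p = 0.687).

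Txn2 (chr15:77745477-77759436, minus strand) read 164, 138 and 145 in IW and 179, 193 and 186 in AW, and 139, 127 and 122 in IM and 160.0, 176 and 170.0 in AM. Active mice were above inactive mice of their genotype without overlap, although IW mouse 1 was above AM mouse 1. The change was 0.35 (SE 0.055, 95% interval 0.23 to 0.47, adjusted p = 0.00225), an increase of 27.6%.

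Sod2 (chr17:13200705-13210985, plus strand), the only superoxide dismutase of the mitochondrial matrix, read 357, 298 and 278 in IW and 359, 382 and 385 in AW, and 279, 269 and 256 in IM and 352, 360.5 and 313 in AM. Within each genotype the active mice were above the inactive ones, but IW mouse 1, the highest inactive mouse, was nearly level with AW mouse 1 and exceeded 2 of 3 AM mice. The change was 0.31 (SE 0.064, 95% interval 0.18 to 0.45, adjusted p = 0.00785), an increase of 24.3%. In the longest transcript, 21.7% of the 65-base windows, all in its 3′ part, also occur elsewhere in the genome, so reads from there could not be placed by sequence alone.

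Prdx3 (chr19:60939954-60950459, minus strand) changed least of the 4 mitochondrial members and had the smallest SE. It read 231, 225 and 225 in IW and 257, 253 and 275 in AW, and 223, 223 and 211 in IM and 242, 243 and 246 in AM. All 6 active mice were above all 6 inactive mice, and the change was 0.18 (SE 0.039, 95% interval 0.09 to 0.26, adjusted p = 0.0115), an increase of 13.1%.

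Prdx6 (chr1:163170243-163181350, minus strand), a cytosolic peroxiredoxin with a single reactive cysteine that also has phospholipase activity, was the cytosolic member that rose. It read 91.8, 92.8 and 91.0 in IW and 95.9, 113 and 110.5 in AW, and 86.8, 83.9 and 90.7 in IM and 109.9, 122 and 105 in AM. As for Prdx3 and Prdx5, all 6 active mice were above all 6 inactive mice, a separation seen in the higher direction in 3.09% of all genes tested. The change was 0.28 (SE 0.054, 95% interval 0.17 to 0.40, adjusted p = 0.00579), an increase of 21.6%. The 5 genes called for activity were also those in which active mice lay above inactive mice without overlap within both genotypes, as did 4.84% of all genes tested.

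Sod1 (chr16:90220987-90226567, plus strand) was the steadiest of the 10 genes, with a range of 96.5 to 110.4 over the 12 mice and a coefficient of variation of 3.66%. Its mean was 103 ± 4.09 (SD, n = 6) in active and 102 ± 3.77 in inactive mice. The activity change was 0.01, with a 95% interval of -0.09 to 0.10 (adjusted p = 0.934), which lies below the whole interval of Sod2. Of the 65-base windows of Sod1, 15.3% occur at 1 other place in the genome.

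Gpx1 (chr9:108241607-108242671, plus strand), the glutathione peroxidase of the cytosol, with some in mitochondria, read 29.9, 38.2 and 37.7 in IW and 44.0, 38.1 and 31.0 in AW, and 46.5, 40.9 and 45.2 in IM and 44.4, 37.9 and 45.1 in AM. The groups overlapped for activity, and the change of 0.01 had a wide interval, -0.18 to 0.21 (adjusted p = 0.928). Cat (chr2:103294006-103325317, minus strand), the catalase of peroxisomes, ranged from 82.0 to 131, with IW mouse 1 the highest of all. Its activity change was 0.09 (95% interval -0.14 to 0.31, adjusted p = 0.588), that of Gpx4 was 0.08 (-0.02 to 0.18, adjusted p = 0.278) and that of Gpx3 was -0.05 (-0.27 to 0.17, adjusted p = 0.764). An increase of the size seen in Txn2 (0.35) lies outside the intervals of Sod1, Gpx1, Gpx4, Cat and Gpx3, but smaller called increases do not: that of Prdx3 (0.18) lies within those of Gpx1, Gpx4 and Cat, and that of Prdx6 (0.28) within that of Cat.

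**Figure D1:**
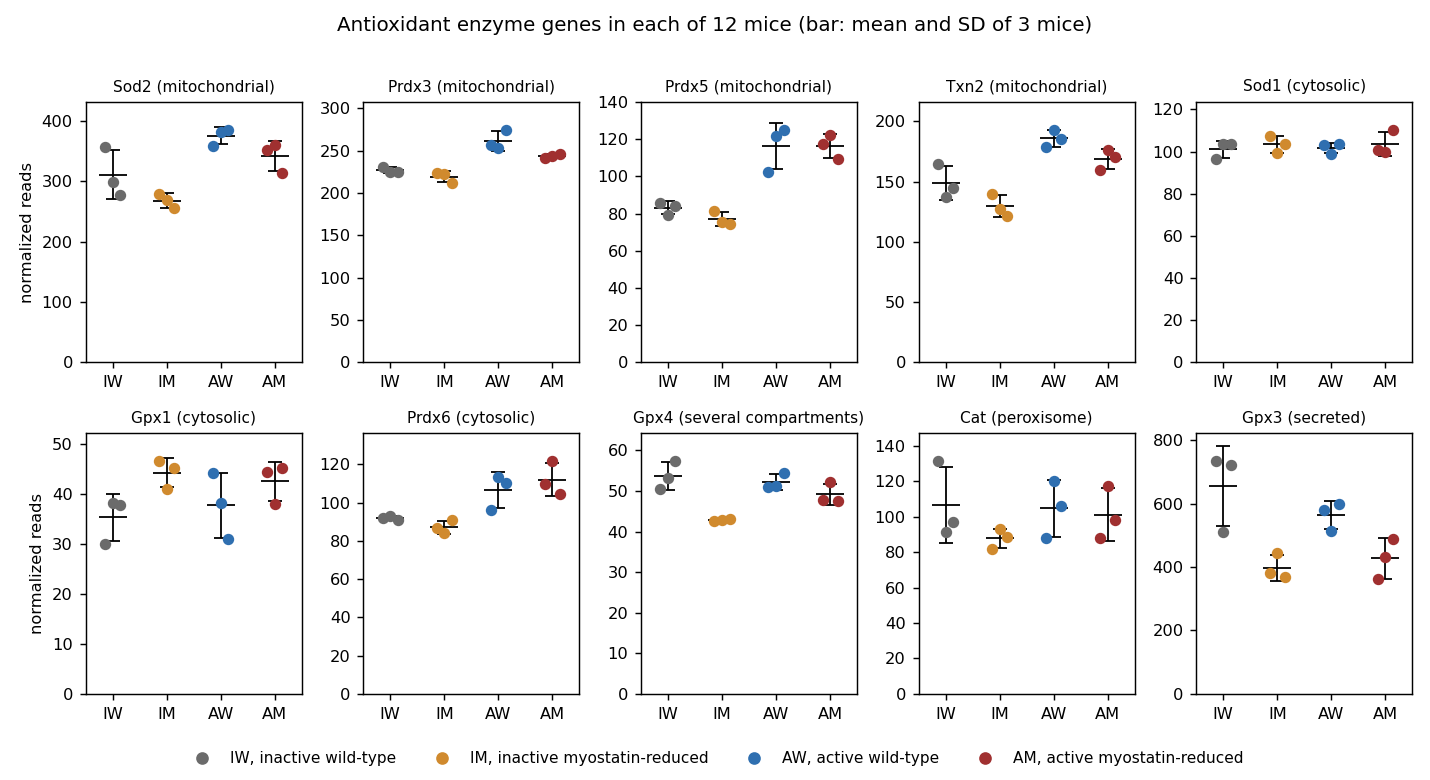
Normalized reads (y axis, from 0) of the 10 antioxidant enzyme genes in each of 12 mice, 1 panel per gene, with the groups IW, IM, AW and AM on the x axis. Points are mice and bars are the mean and SD of 3 mice. Prdx3, Prdx5 and Prdx6 have all 6 active mice above all 6 inactive mice, Sod1 stays between 96.5 and 110.4, and Gpx3 has all 6 myostatin-reduced mice below all 6 wild-type mice.

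Between genotypes the pattern was another one: the secreted Gpx3 and the phospholipid peroxidase Gpx4 were called lower in myostatin-reduced muscle, and no mitochondrial or cytosolic member was called. The call of Gpx3 held in each fit that left out 1 mouse, and that of Gpx4 was lost in most of them. Of all genes tested, 5.78% were called for genotype in either direction and 2.21% were called lower, against 2 of 10 members, both lower. The median log2 change was -0.11 over the 10 members and -0.0049 over all genes tested.

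Gpx3 (chr11:54715955-54723879, plus strand), which reduces peroxides outside cells and circulates in plasma, read 734, 509.8 and 721 in IW and 383, 445 and 367 in IM, and 579, 514 and 599.9 in AW and 362, 431 and 489.9 in AM. All 6 myostatin-reduced mice were below all 6 wild-type mice, as were those of 1.15% of all genes tested. The mean was 609.6 ± 98.1 in wild-type and 413 ± 50.9 in myostatin-reduced mice (SD, n = 6 each). The change was -0.55 (SE 0.10, 95% interval -0.78 to -0.33, adjusted p = 0.00966), a change of -31.9%.

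Gpx4 (chr10:79509911-79519184, plus strand), the selenoprotein that reduces lipid hydroperoxides within membranes and is made in cytosolic, mitochondrial and nuclear forms, read 50.5, 53.1 and 57.3 in IW and 42.5, 42.9 and 43.0 in IM, and 51.1, 51.3 and 54.5 in AW and 47.8, 52.1 and 47.6 in AM. In inactive mice the 3 IM values lay close together and below all IW values, while the genotypes overlapped in active mice. Such a separation of IM from IW was not particular to Gpx4. Prdx3, Prdx6 and Gpx3 were also lower in IM without overlap, and Gpx1 was higher. The share of all genes with such a separation is not given here. The change was -0.20 (SE 0.047, 95% interval -0.30 to -0.10, adjusted p = 0.0286). The call was lost in 8 of 12 fits that left out 1 mouse, with adjusted p of 0.022 to 0.0812 over the 12. It was lost without IW mouse 3 (0.0522), without IM mouse 1 (0.0685), 2 (0.0579) or 3 (0.0633), without AW mouse 2 (0.0556) or 3 (0.0812), and without AM mouse 1 (0.0554) or 3 (0.0673). Of the 65-base windows of its longest transcript, 57.9% also occur at 2 other places in the genome, so the count of Gpx4 depends on how such reads were handled, which is not given in the sources used here.

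Gpx1 was the member with the largest rise in point estimate, 0.25 (95% interval 0.05 to 0.45), and did not pass the test (adjusted p = 0.125), except without AW mouse 1 (0.0468). The 4 mitochondrial members all had negative genotype changes that did not pass: -0.17 for Sod2 (adjusted p = 0.134), -0.17 for Txn2 (0.0957), -0.07 for Prdx3 (0.292) and -0.05 for Prdx5 (0.652). Their 95% intervals, not adjusted for the number of genes, were -0.31 to -0.03 for Sod2, -0.29 to -0.05 for Txn2, -0.16 to 0.01 for Prdx3 and -0.18 to 0.07 for Prdx5. For Prdx3, myostatin-reduced mice nonetheless lay below wild-type mice at both activity levels without overlap, as did 2.55% of all genes tested (Gpx3 included). The changes of Cat (-0.15, adjusted p = 0.407), Sod1 (0.03, 0.763) and Prdx6 (-0.0021, 0.987) were within the spread between mice.

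**Figure D2:**
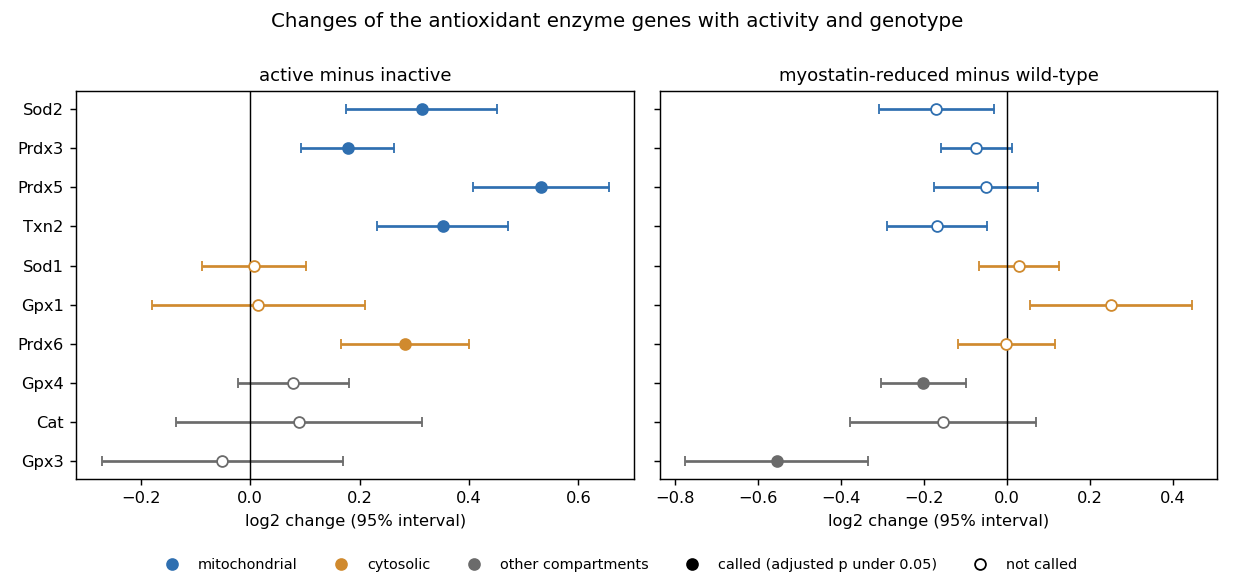
Log2 change (x axis, with 95% interval) of each antioxidant enzyme gene with activity (left) and with genotype (right) in the limma fit, coloured by location, filled where called. The 4 mitochondrial genes and Prdx6 are called on the left, from 0.18 to 0.53, and Gpx4 (-0.20) and Gpx3 (-0.55) on the right.

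No member had a called interaction, the difference between the genotype change in active and in inactive mice. No gene of the 7247 was called by limma either (0%), while 297 (4.1%) had an unadjusted p under 0.05, among them 1 member, Gpx4. Its genotype change was -0.32 in inactive mice (95% interval -0.46 to -0.17) and -0.09 in active mice (-0.23 to 0.06), a difference of 0.23 (0.02 to 0.43, unadjusted p = 0.0309 in limma, adjusted p = 0.890). For Gpx3 the same values were -0.70 and -0.41, a difference of 0.29 (-0.15 to 0.74, adjusted p = 0.890).

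The comparisons of single groups have 3 mice a side. Between active and inactive myostatin-reduced mice, limma called 4 members, all higher (7.84% of all genes were called in either direction): 0.59 (adjusted p = 0.00813) for Prdx5, 0.38 (adjusted p = 0.0149) for Txn2, 0.36 (adjusted p = 0.0184) for Prdx6 and 0.35 (adjusted p = 0.0355) for Sod2. Between active and inactive wild-type mice it called no member and 2 genes in all (0.0276%), a count that was 198 without AW mouse 1 and 0 to 4 without any other mouse, although 5 members had an unadjusted p under 0.05, as did 14.7% of all genes. That absence of calls rests on the settings of the fit. With array weights, which give less weight to more variable samples, limma called 5 members and 415 genes, with adjusted p of 0.00901 for Prdx5, 0.0228 for Txn2, 0.0398 for Prdx3, 0.0447 for Sod2 and 0.0469 for Prdx6. With a mean of at least 50 required it called 39 genes, Prdx5 among them (adjusted p = 0.0366). With the replicate block, or with only these 2 groups in the fit, it called 0 genes. Without weights, the changes were 0.47 (adjusted p = 0.0611) for Prdx5, 0.32 (adjusted p = 0.113) for Txn2, 0.28 (adjusted p = 0.170) for Sod2, 0.21 (adjusted p = 0.222) for Prdx6 and 0.20 (adjusted p = 0.120) for Prdx3. The response of the genotypes was not shown to differ for any of them, with interaction p from 0.890 to 0.945 after adjustment in limma.

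The single-group calls for activity depended on single mice, and so did the counts over all genes: the 568 genes called between AM and IM became 85 without AM mouse 2, 118 to 219 without an IM mouse and 1098 without AM mouse 1. Among myostatin-reduced mice, leaving out IM mouse 1 left 2 of the 4 calls, Prdx5 and Txn2, leaving out IM mouse 2, IM mouse 3 or AM mouse 2 left only Prdx5, and leaving out AM mouse 1 took away Sod2 (adjusted p = 0.052). Leaving out AW mouse 1 added a call for Prdx5 in wild-type mice (0.56, adjusted p = 0.0129). Between inactive groups, Gpx3 (-0.70, adjusted p = 0.0327) and Gpx4 (-0.32, adjusted p = 0.0345) were called lower in IM (2.51% of all genes, or 182, were called in either direction). That count was 23 without IW mouse 1, 47 without IW mouse 3, 25 to 40 without an IM mouse and 96 without AW mouse 3. Both calls were lost without any 1 of IW mice 1 and 3 and IM mice 1, 2 and 3, with adjusted p up to 0.14 for Gpx3 and 0.117 for Gpx4, and that of Gpx4 also without IW mouse 2 (0.0565). Between active groups no member was called and 15 genes were in all (0.207%), with 1 member, Gpx3, at an unadjusted p under 0.05, as had 12.3% of all genes (-0.41, adjusted p = 0.291). The count of 15 was 4 without AW mouse 3, 5 without AM mouse 1 or 3, 6 without AW mouse 2, 7 without IM mouse 1 and 9 without AM mouse 2. It was 28 with the slow-fibre covariate, 7 with a mean of at least 50 required, 9 with the replicate block and 6 with only these 2 groups in the fit.

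To set mitochondrial against cytosolic enzymes within each mouse, the mean log2(value + 1) of Sod1, Gpx1 and Prdx6 was subtracted from that of Sod2, Prdx3, Prdx5 and Txn2. It is not divided by length, so that its size has no meaning between genes and only its differences between mice are read. The difference was 1.51, 1.19 and 1.22 in IW, 1.10, 1.14 and 0.98 in IM, 1.41, 1.52 and 1.64 in AW and 1.33, 1.42 and 1.26 in AM. The AW mice were high and the IM mice low, without overlap between these 2 groups, while IW mouse 1 lay among the AW mice. Group means were 1.30 ± 0.18 in IW, 1.07 ± 0.08 in IM, 1.52 ± 0.11 in AW and 1.34 ± 0.08 in AM (SD, n = 3). Active mice were higher by 0.24 on average, which was 0.22 in wild-type and 0.27 in myostatin-reduced mice, against a pooled SD within groups of 0.12. The mitochondrial mean rose by 0.34 and the cytosolic mean by 0.10, the last through Prdx6. These are descriptions of members chosen with results known, and no test was made on them.

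Myostatin-reduced mice had a lower difference on average, -0.21, made of -0.12 in the mitochondrial mean and 0.09 in the cytosolic mean. That value rests on which genes stand for the cytosol: with all 6 other members in place of the 3 cytosolic ones it was -0.01. The activity value was 0.18 to 0.27 under the 4 other groupings of members tried, lowest without Prdx5, and 0.21 to 0.29 when 1 mouse was left out.

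**Figure D3:**
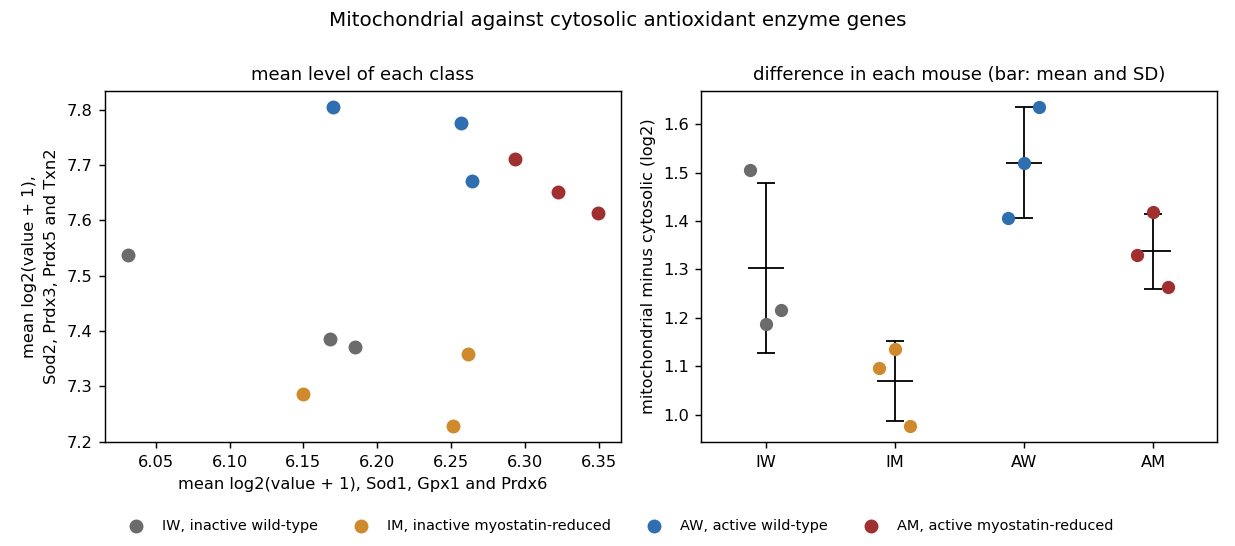
Left, mean log2(value + 1) of the 4 mitochondrial members (y axis) against that of the 3 cytosolic members (x axis) in each of 12 mice. Right, their difference in each mouse by group, with bars for the mean and SD of 3 mice. Mitochondrial means are 7.61 or more in active mice and 7.54 or less in inactive mice, and the difference runs from 0.98 in an IM mouse to 1.64 in an AW mouse.

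The level of slow-fibre genes moved with some of these results. The summed level of 7 genes of slow-fibre proteins (Myh7, Tnnc1, Tnnt1, Tnni1, Myl2, Myl3 and Tpm3) was 827, 19.8 and 163 in IW, 15.9, 39.1 and 30.1 in IM, 53.4, 1023 and 1188 in AW, and 381, 862 and 28.2 in AM. It differed between mice of 1 group by far more than any antioxidant gene did, and IW mouse 1, high in Sod2, Txn2 and Cat, was high in it too. All 7 genes had higher means in active and lower means in myostatin-reduced mice, and none of the 7 was called. With the slow-fibre score (the mean of the 7 centred log2 values) as a covariate, the same 5 members were called for activity, at 0.45 for Prdx5, 0.31 for Txn2, 0.24 for Sod2, 0.22 for Prdx6 and 0.17 for Prdx3. For genotype Gpx3 stayed called (adjusted p = 0.0178), and Gpx4 passed the threshold no longer (0.0585) at a change of -0.19, close to the -0.20 without the covariate. Of the single-group calls, the covariate ended 3 of the 4 between AM and IM, with Sod2 at 0.25 (adjusted p = 0.117), Txn2 at 0.33 (0.0522) and Prdx6 at 0.28 (0.0623). It also ended both between IM and IW, with Gpx3 at -0.67 (0.0524) and Gpx4 at -0.30 (0.0634). Between AW and IW it added a call, Prdx5 at 0.42 (adjusted p = 0.0416), and all genes called there went from 2 to 22.

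Other cell types were checked by their markers. Genes of fast fibres, the main fibres of triceps, summed to 113746 to 171785 normalized reads (2 of 7 called for activity, 1 higher and 1 lower, 0 of 7 for genotype), and 6 general muscle genes summed to 71765 to 91276. The fast-fibre sum was 134480 to 158646 in IW, 167309 to 171785 in IM, 113746 to 140831 in AW and 117245 to 151149 in AM. The muscle sum was 74569 to 81625 in IW, 87480 to 91276 in IM, 71765 to 74794 in AW and 75394 to 84297 in AM. Both sums were highest in IM, without overlap with the other groups. Of the fast-fibre genes the called ones, named after their values were seen, were the myosins Myh1 (1.51) and Myh4 (-0.57). Of the general muscle genes 1 was called, Mb, the myoglobin of oxidative fibres, named after its values were seen, with an activity change of 1.82 (adjusted p = 0.0019) and a genotype change of -1.26 (0.0206). Endothelial markers were higher in active mice, with 5 of 6 tested genes called, and their sum ranged from 268 to 344 in IW, 232 to 243 in IM, 268 to 453 in AW and 301 to 505 in AM. Of adipocyte markers, 5 of 7 were in the table and 1 of 2 tested was called higher for activity (Fabp4, named after its values were seen), with a summed range of 105 to 229.8. No marker of macrophages (59.4 to 105, 2 tested) or fibroblasts (417 to 648, 6 tested) was called for activity or genotype. Of 7 erythroid markers only Alas2 was in the table, at 2.11 to 7.19. The part of fibre type other than through the slow-fibre covariate, and of endothelial and fat cells, in the results on the antioxidant genes was not tested.

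The genes whose pattern over the 12 mice was most like that of a called member were sought among 2548 tested genes with a mean of at least 50, by the root mean square difference of centred log2 values. For Sod2 they were Ptcd3 (0.0273), Hspa9 (0.0301) and Dld (0.0349), against a spread of Sod2 itself about its mean of 0.203. They include a mitochondrial chaperone (Hspa9) and a subunit of the pyruvate and oxoglutarate dehydrogenase complexes (Dld). For Txn2 they were Atp5f1 (0.0445), Sdhc (0.0469) and Ndufv2 (0.0475), subunits of ATP synthase, complex II and complex I, against 0.21 for Txn2. For Prdx5 they were S100a1 (0.0607), Ndufb10 (0.0702) and Bola3 (0.0765), against 0.28, and for Prdx3 Mrpl30 (0.0359), Prkag1 (0.0371) and Eef1b2 (0.0409), against 0.103.

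For the cytosolic Prdx6 the closest were Hibadh (0.0598), Ndufa10 (0.0630) and Tmem70 (0.0649), against 0.163, and Hibadh and Ndufa10 encode a mitochondrial dehydrogenase of valine breakdown and a complex I subunit. For Gpx3 they were Ramp1 (0.136), Rcan1 (0.145) and Art3 (0.155), against 0.334. Their genotype changes were -0.75 to -0.46, a direction all but fixed by their choice for likeness to Gpx3. For Gpx4 they were Hnrnpa2b1 (0.0584), Mapkapk2 (0.0654) and Agpat6 (0.0655), against 0.133. Likeness in these samples is a description, since the 12 mice share their groups.

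Genes of other mitochondrial proteins were read beside the mitochondrial members, and a difference between these sets was not tested. Of 21 tested genes of respiratory complexes and other mitochondrial enzymes, 15 were called higher with activity, none lower and 6 not at all, with a median change of 0.30, beside 0.33 for the 4 mitochondrial members and -0.02 for all genes. Of all genes tested, 7.99% were called higher with activity. The succinate dehydrogenase subunit Sdhb changed by 0.65 (SE 0.11, adjusted p = 0.00270), and the cytochrome oxidase subunits Cox6c and Cox4i1 by 0.45 (SE 0.068, adjusted p = 0.00190) and 0.45 (SE 0.067, adjusted p = 0.00186). Among the 6 that did not pass were 3 named after their values were seen, the mitochondrial transcription factor Tfam (-0.01, adjusted p = 0.907), the import receptor Tomm20 (0.01, adjusted p = 0.956) and the outer membrane channel Vdac1 (0.05, adjusted p = 0.476). For genotype 0 of 21 were called by limma, with 21 of 21 changes below 0 and a median of -0.13, beside -0.12 for the mitochondrial members.

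Among 76 tested genes of other redox lists, 18 were called for activity (10 higher and 8 lower) and 5 for genotype (2 higher and 3 lower), with a median activity change of 0.0045. Of all genes tested, 14.5% were called for activity and 5.78% for genotype. These shares also stand beside the counts by list below, and no set was tested against them. Of the 11 tested genes of NADPH supply, on which thioredoxin and glutathione reduction rest, 3 were called higher and none lower, 4 had changes below 0 and the median was 0.00505. Idh2, the mitochondrial NADP-dependent isocitrate dehydrogenase, changed by 1.20 (SE 0.26, adjusted p = 0.0113), and Nnt, the transhydrogenase of the inner membrane, by 1.03 (SE 0.22, adjusted p = 0.00943). Both varied widely between mice of a group, with an SD of 145 on a mean of 319.9 in AW for Idh2. Pgls, an enzyme of the pentose phosphate path, was the other called one (0.24, SE 0.073, adjusted p = 0.0444).

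In the glutathione list, 3 of 16 genes were called for activity, 1 higher and 2 lower, and 3 for genotype, all lower. The transferase Gstk1, found in mitochondria and peroxisomes, rose by 0.51 (SE 0.083, adjusted p = 0.00280). Gclc, the catalytic subunit of the enzyme that limits glutathione synthesis, changed by -0.43 (SE 0.093, adjusted p = 0.0102), and the membrane transferase Mgst1 changed with genotype by -0.45 (SE 0.10, adjusted p = 0.0234). The other called genes of the list, named after their values were seen, were Gstm1 for activity (-0.34) and the glutaredoxins Glrx2 (-0.25) and Glrx5 (-0.21) for genotype. In the thioredoxin list, 4 of 14 were called for activity: 2 rose, the cytosolic peroxiredoxin Prdx2 at 0.44 (SE 0.069, adjusted p = 0.00208) and the mitochondrial methionine sulfoxide reductase Msrb2 at 0.35 (SE 0.063, adjusted p = 0.00434). Of the 2 that fell, Txnip, an inhibitor of thioredoxin, changed by -0.31 (SE 0.077, adjusted p = 0.0217). The other one was Msrb3 (-0.29), and for genotype 1 of the 14 was called, Sesn1 (0.20), both named after their values were seen.

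Of the superoxide, haem and iron genes, 2 of 8 were called for activity: the haem oxygenase Hmox2 at 0.24 (SE 0.068, adjusted p = 0.0347) and the quinone reductase Nqo1 at -0.40 (SE 0.087, adjusted p = 0.0113). Of the selenium genes 1 of 10 was called, Sepp1, which carries selenium in plasma (0.21, SE 0.059, adjusted p = 0.0340), and of the regulators 4 of 13, 1 higher and 3 lower. Bach1, a repressor of antioxidant response element genes, changed by -0.38 (SE 0.074, adjusted p = 0.00626), the autophagy receptor Sqstm1 by -0.32 (SE 0.078, adjusted p = 0.0197), and Esrra, a nuclear receptor that drives mitochondrial genes, by 0.36 (SE 0.061, adjusted p = 0.00290). The other one, Cul3, was at -0.22. Cul3 and Nfe2l2 were named after their values were seen. Nfe2l2, the activator that binds antioxidant response elements, changed by -0.14 and was not called (adjusted p = 0.267). Of 4 tested sources of oxidants, the xanthine oxidoreductase Xdh was called for activity (0.60, SE 0.10, adjusted p = 0.00370) and the monoamine oxidase Maob for genotype (0.32, SE 0.069, adjusted p = 0.0196).

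**Figure D4:**
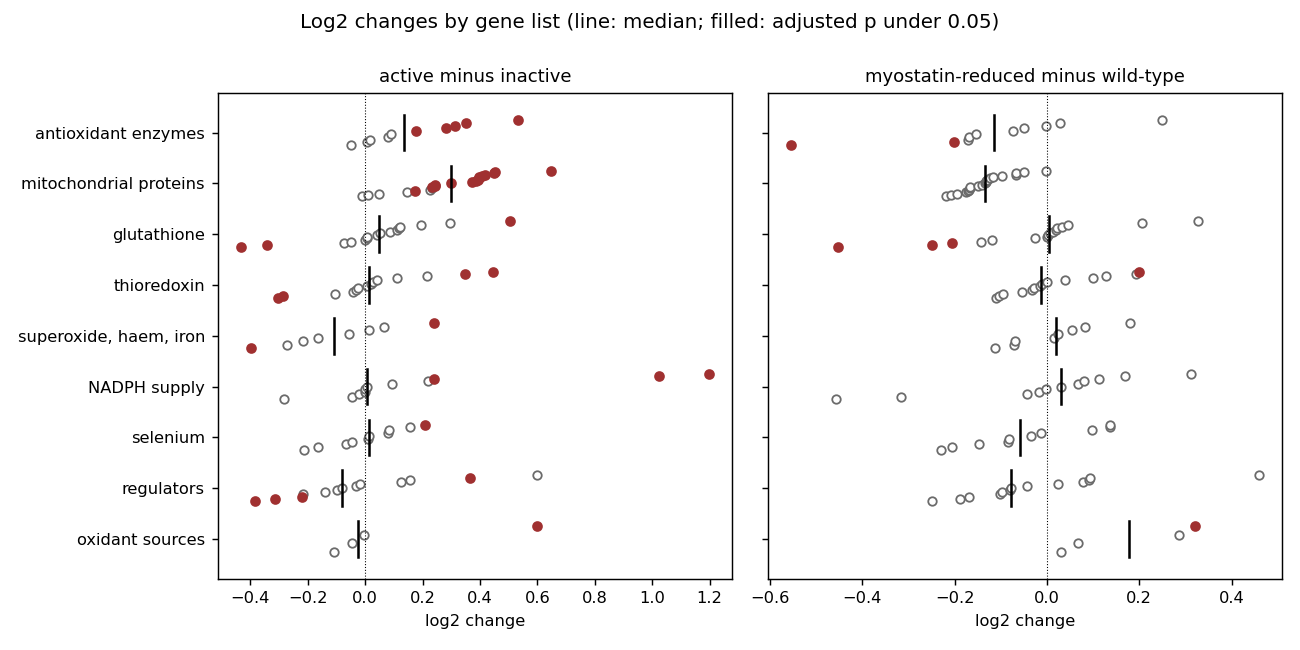
Log2 change with activity (left) and genotype (right) of each tested gene, by list, with the 10 antioxidant enzyme genes on top and 21 genes of other mitochondrial proteins next. Filled points have a limma adjusted p under 0.05 and black lines are medians. The median of those 21 genes is 0.30 on the left, and the medians of the other redox lists lie between -0.11 and 0.05.

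The promoters of the members were searched for short motifs, with sequences from RefSeq (GRCm38.p6, 250 bases before to 50 after each start), in which 9 of 10 members were matched and Prdx6 was not. The bases before the start are shown for the 2 members with the largest activity changes (Prdx5 and Txn2), for the one that differed most between genotypes (Gpx3) and for Sod1, which was not called. Each runs 5′ to 3′ on the gene's strand and ends at the base before the start, and capitals mark an antioxidant response element (TGACNNNGC, on either strand), the site of Nfe2l2.
Prdx5: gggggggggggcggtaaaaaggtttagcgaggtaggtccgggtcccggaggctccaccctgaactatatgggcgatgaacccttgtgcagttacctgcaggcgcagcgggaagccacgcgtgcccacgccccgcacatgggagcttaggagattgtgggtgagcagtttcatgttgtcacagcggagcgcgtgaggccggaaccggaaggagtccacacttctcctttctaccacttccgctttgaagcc
Txn2: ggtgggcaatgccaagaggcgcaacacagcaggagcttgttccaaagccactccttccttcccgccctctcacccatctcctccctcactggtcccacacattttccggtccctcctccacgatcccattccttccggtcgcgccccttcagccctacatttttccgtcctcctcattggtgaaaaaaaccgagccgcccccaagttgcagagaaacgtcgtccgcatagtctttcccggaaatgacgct
Gpx3: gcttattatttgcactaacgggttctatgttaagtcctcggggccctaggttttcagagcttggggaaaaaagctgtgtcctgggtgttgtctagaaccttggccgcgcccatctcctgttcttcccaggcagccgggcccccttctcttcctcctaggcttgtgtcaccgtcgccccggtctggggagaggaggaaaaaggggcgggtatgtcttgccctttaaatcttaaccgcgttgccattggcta
Sod1: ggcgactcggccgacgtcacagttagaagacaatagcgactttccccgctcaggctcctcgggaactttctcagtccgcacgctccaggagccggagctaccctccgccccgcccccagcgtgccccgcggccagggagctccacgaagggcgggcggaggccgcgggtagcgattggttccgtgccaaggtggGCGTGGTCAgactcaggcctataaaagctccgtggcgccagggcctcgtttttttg

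In GRCm38.p6 these are chr19:6910107-6910356 (minus strand) for Prdx5, chr15:77928995-77929244 (minus strand) for Txn2, chr11:54902604-54902853 (plus strand) for Gpx3 and chr16:90220512-90220761 (plus strand) for Sod1. The antioxidant response element was found in the promoter of Sod1 alone among the 9 genes, as GCGTGGTCA from position -56, and 12.4% of 32851 mouse promoters of this length hold it. The NRF1 motif (GCGCA, any base, then GCGC), of a factor that drives nuclear genes of mitochondria, was found at 1 site of Gpx4, which lies in 2 overlapping windows of its 4 listed promoters, and in no other member, against 4.60% of all promoters. The ERR site TCAAGGTCA was found in no member and in 0.423% of all promoters. The CCAAT box was found in Sod2, Txn2, Sod1, Gpx4, Cat and Gpx3, against 37.4% of all, and the TATA box TATAAA in Prdx3 and Sod1, against 13.6%. A match is a run of letters in this window and says nothing of binding.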

How the data were processed

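Polyadenylated RNA of triceps brachii from 12 mice was sequenced as 65-base single-end reads. The authors mapped reads with CASAVA (version not given in the sources used here) to mm9, counted them in RefSeq exons summed to genes and scaled samples to an equal trimmed mean. The deposited values are therefore a signal, normalized read counts per gene, not divided by length. Summed values were 927958 to 1080139 per sample, and steps between low values gave an estimated 9023648 to 12184244 reads per sample, with at least 333 reads behind any member in any sample. Only 68.1% to 69.8% of values between 20 and 50 were whole multiples of the step within 0.0055, so no count test was run.

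Groups came from the sample titles. Values were analysed with limma 3.58.1 in R 4.3.3 (4 group means, empirical Bayes with trend) on log2(value + 1), for 7247 genes with a mean of at least 10. Contrasts were activity, genotype, their interaction and the 4 pairs of groups, with Benjamini-Hochberg adjustment over all genes tested. P-values measure the spread between the 3 mice of a group. Replicate numbers name different mice, and of 18 pairs of same-numbered mice 9 had deviations from group means correlated over 0.1. Between IM and AM all 3 pairs were over 0.1 (0.171 to 0.322), and in no other pair of groups were all 3, so no block was used in the fit of all groups. A fit with a replicate block in IM and AM only, chosen after seeing the data, called the same number of members between AM and IM, 4.

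The members and gene lists were chosen with earlier results of these data known. All members were named, with at most 3 called genes per redox list (largest change) the 3 nearest genes of each called member, Mstn as the targeted gene and marker genes where their list total moved with a result. Other genes named, such as Mb, Fabp4, Trmt112 and Alas2, were chosen after their values were seen. Transcript lengths and coordinates come from the GENCODE annotation of NCBIM37. The alternatives tried were other pseudocounts, filters and scalings, array weights, a replicate block, a slow-fibre covariate, fits of only the 2 groups compared, other groupings of members, lengths scaled to windows that occur once (chosen after seeing the data), and leaving out each mouse.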

Additional observations from a re-analysis of the deposited data

How the results depend on the processing

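The 5 members called for activity numbered 5 under each of the 21 alternatives to that fit, and no member was called for the interaction, or between AM and AW, under any. The replicate block changed no count of members (5 for activity, 2 for genotype). Leaving out 1 mouse gave 5 members for activity, 1 to 3 for genotype, 0 for the interaction, 0 to 1 for AW against IW, 1 to 4 for AM against IM, 0 to 2 for IM against IW and 0 for AM against AW. Over all genes it gave 552 to 1485 called for activity, against 1051 (655 or fewer without IW mouse 2, IM mouse 3, AW mouse 2 or 3, or AM mouse 2), 180 to 579 for genotype, against 419 (245 or fewer without IW mouse 1, IM mouse 1 or 3, AW mouse 2 or 3, or AM mouse 3), and 0 to 1 for the interaction. For the mean difference of mitochondrial and cytosolic members it gave 0.213 to 0.293 for activity and -0.237 to -0.158 for genotype, and with all other members in place of the cytosolic ones the genotype value was -0.0103. For the pairs of groups it gave 0 to 198 genes for AW against IW (against 2), 85 to 1098 for AM against IM (568), 23 to 216 for IM against IW (182) and 4 to 15 for AM against AW (15). Array weights gave 1740 genes for activity, 5 members and 415 genes for AW against IW, 931 genes for AM against IM and 334 for IM against IW. The slow-fibre covariate gave 421 genes for activity, 22 for AW against IW, 220 for AM against IM, 116 for IM against IW and 28 for AM against AW. It called 1 member for genotype, 1 for AW against IW, 1 for AM against IM and 0 for IM against IW. The lost members kept their direction, at -0.19 for Gpx4 with genotype, 0.25 for Sod2, 0.33 for Txn2 and 0.28 for Prdx6 between AM and IM, and -0.67 for Gpx3 and -0.30 for Gpx4 between IM and IW. With a mean of at least 50 required, Gpx4 and Gpx1 were not tested, and 272 genes and 1 member were called for genotype, 1 member for AW against IW and 1 for IM against IW, and 39 genes for AW against IW and 7 for AM against AW. Some of these fits hold fewer genes or mice, and the causes of the shifts were not tested. Between AM and IM, the replicate block over all mice and the block in IM and AM only, the latter chosen after seeing the data, each called 4 members, Prdx5 (adjusted p = 0.0159 and 0.0121), Txn2 (0.0233 and 0.0234), Prdx6 (0.0231 and 0.0274) and Sod2 (0.0322 and 0.0367), and 628 genes, against 568. The replicate block over all mice moved the count of all genes called for IM against IW from 182 to 98, for AM against AW from 15 to 9 and for AW against IW from 2 to 0. With only the 2 groups compared in the fit, no member count of a pair changed, and the genes called were 0 for AW against IW, 536 for AM against IM, 214 for IM against IW and 6 for AM against AW. With 3 mice a group, the intervals, not a missed threshold, bound the change of a member that was not called.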
